A study of Mus musculus with 8 samples.

Results

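Immediate early genes are switched on within minutes of synaptic activity, without new protein synthesis, when calcium entry and kinase signalling activate transcription factors already bound near their promoters. The 10 described here were Arc, which makes a capsid-like protein at synapses that promotes the removal of AMPA receptors; Fos, Fosb, Jun and Junb, whose proteins pair to form the AP-1 transcription factor; Egr1 and Egr3, zinc finger transcription factors; Nr4a1, an orphan nuclear receptor; Npas4, a neuronal bHLH-PAS transcription factor; and Dusp1, a phosphatase that switches MAP kinases off. They were taken by name from a list of activity-dependent genes and made up 10 of the 55401 genes of the count table. All 10 had counts in all 8 libraries and passed the filter on low counts in all 3 comparisons. In brain these RNAs are short-lived, their levels are used as a trace of recent neuronal firing, and Arc RNA is also carried into dendrites.

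The libraries came from C57BL/6 mouse tissue labelled hippocampus, and no treatment, genotype, age or sex is given in the labels used here. CaMKIIβ RIP (3 libraries) held RNA recovered with an antibody against CaMKIIβ, the beta subunit of CaMKII, a calcium-activated kinase of synapses. IgG RIP (3 libraries) held RNA recovered with a non-specific antibody, and Input (2 libraries) held RNA from before the precipitation. In RNA immunoprecipitation (RIP), RNA bound to a protein is enriched over Input and over what an unspecific antibody brings down. Nothing in the labels says whether replicates were separate animals or pools, so a p-value measures the spread between these libraries, which may be technical.

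Library totals ran between 17273957 and 28138289 counts. CaMKIIβ RIP replicate 2 had the smallest total and 19247 genes with a count, against 24865 and 27064 in the other CaMKIIβ RIP libraries, 27380 to 28458 in IgG RIP and 30899 to 31152 in Input. The 10 listed markers of hippocampal excitatory neurons were all detected in each group, with a summed level of 175 to 244 CPM (counts scaled to a common library size) per kilobase of exon in CaMKIIβ RIP, 199 to 217 in IgG RIP and 188 to 190 in Input. The 10 listed cerebellar granule cell markers were detected too and summed to 952 to 1032, 994 to 1032 and 833 to 854 CPM per kilobase in the same groups. The levels below therefore come from RNA that also carried markers of cerebellum, and in bulk RNA fewer cells of a type and less RNA per cell cannot be told apart.

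The promoters of 4 members are shown with exact matches to an activity-responsive sequence, of which Jun had none in this window. Each is the 250 bases before the RefSeq transcription start on GRCm38.p6, written 5′ to 3′ on the gene's strand. Jun lies at chr4:95052223-95052472 on the minus strand, Nr4a1 at chr15:101266596-101266845 on the plus strand, Fos at chr12:85473640-85473889 on the plus strand and Npas4 at chr19:4989972-4990221 on the minus strand. Capitals mark the core of the cAMP response element, TGACG or its reverse complement CGTCA, bound by CREB, a transcription factor that calcium signalling activates.
Jun: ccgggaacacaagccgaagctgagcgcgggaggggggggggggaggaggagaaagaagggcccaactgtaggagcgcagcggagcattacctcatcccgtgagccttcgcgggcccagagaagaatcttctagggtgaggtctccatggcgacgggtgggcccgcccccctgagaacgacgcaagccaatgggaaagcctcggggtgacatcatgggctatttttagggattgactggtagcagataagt
Nr4a1: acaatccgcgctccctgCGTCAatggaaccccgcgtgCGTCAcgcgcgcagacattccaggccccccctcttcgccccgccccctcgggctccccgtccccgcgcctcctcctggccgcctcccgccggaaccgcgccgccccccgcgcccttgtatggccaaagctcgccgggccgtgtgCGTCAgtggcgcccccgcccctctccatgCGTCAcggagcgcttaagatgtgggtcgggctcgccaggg
Fos: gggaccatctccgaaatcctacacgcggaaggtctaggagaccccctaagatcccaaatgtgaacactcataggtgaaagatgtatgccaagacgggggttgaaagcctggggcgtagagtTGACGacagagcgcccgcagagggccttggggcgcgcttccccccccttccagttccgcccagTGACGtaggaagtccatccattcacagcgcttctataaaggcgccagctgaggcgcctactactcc
Npas4: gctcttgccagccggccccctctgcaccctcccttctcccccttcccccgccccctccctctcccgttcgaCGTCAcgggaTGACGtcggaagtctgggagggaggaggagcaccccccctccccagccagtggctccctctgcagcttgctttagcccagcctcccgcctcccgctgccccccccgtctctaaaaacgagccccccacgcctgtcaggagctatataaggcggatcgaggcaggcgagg
Only exact matches were counted, and near matches were not searched. The window of Jun held 0 of these cores, that of Nr4a1 held 4, and those of Fos and Npas4 held 2 each. RefSeq windows were used for 7 members, and 6 of the 7 had a core. Of 32851 windows of the same length searched on both strands, 17.8% had one. The members' windows were 58.4% (Fos) to 74.4% (Nr4a1) G or C. The background was not matched for base composition, so its part in this contrast was not tested. Dusp1 was the member with the whole element, TGACGTCA, which 1.55% of windows held and which overlaps its core. The AP-1 motif TGANTCA was in 0 of 7 (6.75% of windows), and the CArG box, bound by serum response factor, was in 0 of 7 (1.47% of windows). No window was used for Arc, Egr1 or Egr3. Arc and Egr3 had no entry among the RefSeq windows, while Egr1 was excluded before the search and not for want of an entry. The counts out of 7, including those of 0 for the AP-1 motif and the CArG box, leave Egr1 unexamined. Sequence farther than 250 bases upstream was not searched for any member. The counts of 0 therefore do not show that these genes lack such sites. RIP measures RNA and not promoters, so these matches describe the genes and were not set against the RNA levels.

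Arc had 74.3, 57.1 and 68.2 CPM in the CaMKIIβ RIP libraries and 71.1, 72.3 and 69.1 CPM in the IgG RIP libraries, against 41.8 and 31.4 CPM in Input. All 6 precipitated libraries lay above both Input libraries, and the 2 kinds of precipitate overlapped. Arc (ENSMUSG00000022602.14) lies at chr15:74669083-74672570 on the minus strand.

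Jun was the highest AP-1 member, with 98.3, 85.3 and 91.7 CPM in CaMKIIβ RIP and 85.7, 93.7 and 96.3 CPM in IgG RIP, against 53.5 and 52.3 CPM in Input. Again the precipitates overlapped each other and stood clear of Input. The gene (ENSMUSG00000052684.4, chr4:95049034-95052222, minus strand) shares 232 bases, 7.28% of its exon length, with a gene on the opposite strand, and whether counting used strand is not given in the sources used here.

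Junb (ENSMUSG00000052837.7, chr8:84976910-84978718), the other Jun protein gene measured, had 13.2, 10.2 and 14.6 CPM in CaMKIIβ RIP and 12.04, 12.03 and 13.9 CPM in IgG RIP, against 10.1 and 9.90 CPM in Input. The IgG RIP libraries lay above Input, while those of CaMKIIβ RIP reached down to 10.2 CPM, just above the higher Input library, and overlapped Input when only the libraries compared were scaled together. Fos (ENSMUSG00000021250.13, chr12:85473890-85477273) had 15.9, 17.4 and 15.1 CPM in CaMKIIβ RIP and 17.3, 15.3 and 21.6 CPM in IgG RIP, against 15.6 and 16.2 CPM in Input, so all 3 groups overlapped. Fosb (ENSMUSG00000003545.3, chr7:19302696-19310051) was the least abundant member per length and rested on few reads, with 95, 12 and 98 counts in the CaMKIIβ RIP libraries and 55, 60 and 105 in those of IgG RIP, against 31 and 44 in Input. After scaling that was 3.96, 0.699 and 4.79 CPM in CaMKIIβ RIP and 2.49, 2.80 and 3.94 CPM in IgG RIP, against 1.56 and 1.85 in Input. The low CaMKIIβ RIP value came from replicate 2, the shallowest library.

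Egr1 (ENSMUSG00000038418.7, chr18:34859823-34864984) had 25.6, 24.7 and 44.3 CPM in CaMKIIβ RIP and 30.1, 26.9 and 38.3 CPM in IgG RIP, against 36.0 and 37.8 CPM in Input. In each precipitate, replicate 3 was the high library and the other 2 lay below both Input libraries. Egr3 (ENSMUSG00000033730.4, chr14:70077203-70082614) had 22.6, 25.5 and 23.3 CPM in CaMKIIβ RIP and 20.7, 23.9 and 22.7 CPM in IgG RIP, against 16.2 and 16.5 CPM in Input. All of its precipitated libraries lay above Input, unlike those of Egr1.

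Nr4a1 (ENSMUSG00000023034.7, chr15:101254269-101274795) had 31.2, 27.8 and 32.0 CPM in CaMKIIβ RIP and 29.3, 30.9 and 32.1 CPM in IgG RIP, against 20.4 and 23.2 CPM in Input. The precipitates overlapped each other and lay above Input. Npas4 (ENSMUSG00000045903.9, chr19:4984355-4990316) had 6.21, 8.22 and 1.47 CPM in CaMKIIβ RIP and 5.12, 5.46 and 6.42 CPM in IgG RIP, against 7.002 and 5.91 CPM in Input. All groups overlapped, and CaMKIIβ RIP replicate 3, with 30 counts against 149 and 141 in replicates 1 and 2, was far below the rest. Dusp1 (ENSMUSG00000024190.7, chr17:26505590-26562128) had 38.2, 44.9 and 32.6 CPM in CaMKIIβ RIP and 33.8, 29.4 and 33.7 CPM in IgG RIP, against 28.3 and 31.0 CPM in Input. Its CaMKIIβ RIP libraries lay above Input and overlapped IgG RIP.

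**Figure D1:**
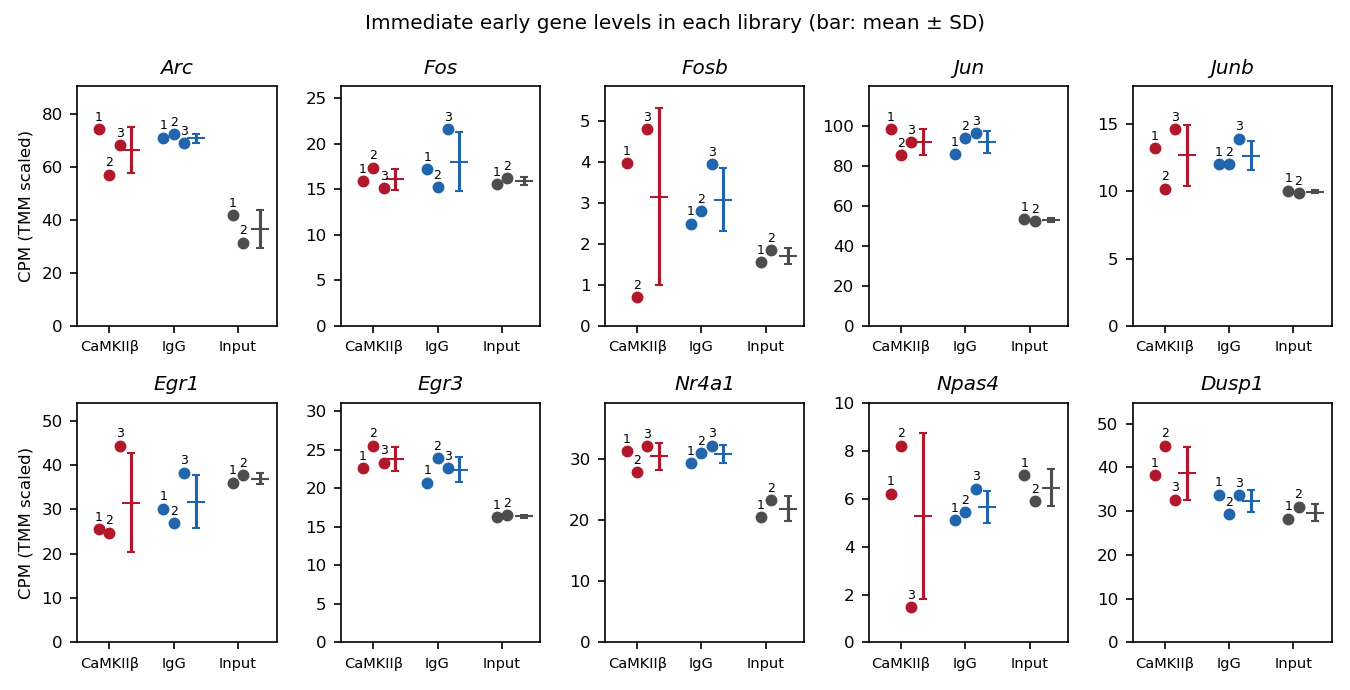
Level of each of the 10 immediate early genes in every library, in CPM scaled by TMM, with 1 point for each library and a bar at the group mean for CaMKIIβ RIP (n = 3), IgG RIP (n = 3) and Input (n = 2). Arc and Jun stand clear of Input in all 6 precipitated libraries, and Npas4 has 1 CaMKIIβ RIP library at 1.47 CPM.

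Per kilobase of exon, the order of levels was led by Jun, Arc and Dusp1 in every group. Jun averaged 28.8 ± 2.04 CPM per kilobase in CaMKIIβ RIP and 28.8 ± 1.73 in IgG RIP (SD, n = 3 each), against 16.6 ± 0.263 in Input (SD, n = 2), where it was above 91.8% of the genes with a count in both libraries. Arc followed with 21.8 ± 2.84 and 23.2 ± 0.537, against 11.97 ± 2.39 in Input, and its libraries did not overlap those of Jun in any group. Egr1 averaged 7.03 ± 2.47 in CaMKIIβ RIP, where it overlapped Nr4a1 above it and Junb below it, and 7.08 ± 1.31 in IgG RIP, where it overlapped Fos above it and Junb below it, against 8.22 ± 0.281 CPM per kilobase in Input, where it came next after Dusp1. In both precipitates Nr4a1 came next after Dusp1, at 8.65 ± 0.642 CPM per kilobase in CaMKIIβ RIP and 8.77 ± 0.404 in IgG RIP, against 6.22 ± 0.571 in Input, where it overlapped Fos. Npas4 (1.28 ± 0.838, 1.37 ± 0.164 and 1.56 ± 0.186 in CaMKIIβ RIP, IgG RIP and Input) and Fosb (0.505 ± 0.347, 0.493 ± 0.123 and 0.273 ± 0.0322) were lowest throughout, and overlapped each other in CaMKIIβ RIP only.

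The comparison of CaMKIIβ RIP with IgG RIP asks which RNAs the CaMKIIβ antibody recovered beyond an unspecific antibody. None of the 10 immediate early genes passed the test, with 0 higher and 0 lower at an adjusted p under 0.05, and the background was the same, 0% of 20566 genes tested (edgeR quasi-likelihood test, Benjamini-Hochberg adjustment over all genes; DESeq2 also called 0). At an unadjusted p under 0.05, edgeR had 721 genes (3.51%), none of them a member. The members' log2 fold changes ran between -0.16 ± 0.20 for Fos and 0.27 ± 0.16 for Dusp1 (± SE), with adjusted p-values of 0.982 to 0.999 and a median of -0.001, against -0.016 over all genes tested. The libraries overlapped for all 10, where 12.1% of genes tested had groups that did not overlap.

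How tightly these data bound a difference depended on the member. For Jun the 95% interval of the log2 fold change was -0.24 to 0.24, for Nr4a1 -0.33 to 0.30 and for Arc -0.36 to 0.19. Junb was bounded at -0.47 to 0.49 and Egr1 at -0.54 to 0.53. For the 2 members with the fewest reads the intervals were wide, -1.26 to 1.08 for Npas4 and -1.37 to 1.45 for Fosb, and include a change of 2-fold in either direction. Both had 1 CaMKIIβ RIP library far below the other 2, replicate 3 for Npas4 and replicate 2 for Fosb. Their SE were 0.21 and 0.33 in IgG RIP against Input, against 0.52 and 0.63 here. The SE of every other member was smaller there too, as for Egr1 (0.13 against 0.24) and Jun (0.08 against 0.11). What widened the intervals was not tested.

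The comparison of CaMKIIβ RIP with Input asks which RNAs were enriched by the precipitation as a whole. Arc and Jun rose, and the other 8 members did not pass. Arc was 1.76-fold higher in CaMKIIβ RIP (log2 fold change 0.82 ± 0.19, SE, edgeR adjusted p = 0.0431) and Jun 1.68-fold higher (0.75 ± 0.13, adjusted p = 0.0182). That is 2 of 10 higher and 0 lower, where 5.06% of 22095 genes tested were higher, 3.40% lower and 8.45% called in either direction (1117 and 751 genes, or 683 higher and 1361 lower with plain library size scaling).

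Egr3 (0.50 ± 0.19, adjusted p = 0.172), Nr4a1 (0.43 ± 0.18, adjusted p = 0.208) and Dusp1 (0.34 ± 0.19, adjusted p = 0.387) had libraries all above Input without passing. With Arc and Jun, 5 of 10 members had groups that did not overlap (libraries scaled within the comparison), close to the 47.4% of genes tested. Junb had 0.30 ± 0.26 and Fosb 0.84 ± 0.86, while Fos (-0.03 ± 0.21), Egr1 (-0.27 ± 0.27) and Npas4 (-0.33 ± 0.65) had values below 0. The members' median was 0.38, against -0.12 over all genes tested. The call of Arc was lost without CaMKIIβ RIP replicate 1 (adjusted p = 0.17), CaMKIIβ RIP replicate 3 (0.0933) or Input replicate 2 (0.469) and under plain library size scaling (0.0731), and that of Jun without CaMKIIβ RIP replicate 1 (0.0862), Input replicate 1 (0.146) or Input replicate 2 (0.226), with log2 fold changes between 0.61 and 0.81 in all of these fits. Without CaMKIIβ RIP replicate 2, Fosb (1.37, adjusted p = 0.0458) and Nr4a1 (0.55, adjusted p = 0.0419) passed as well.

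**Figure D2:**
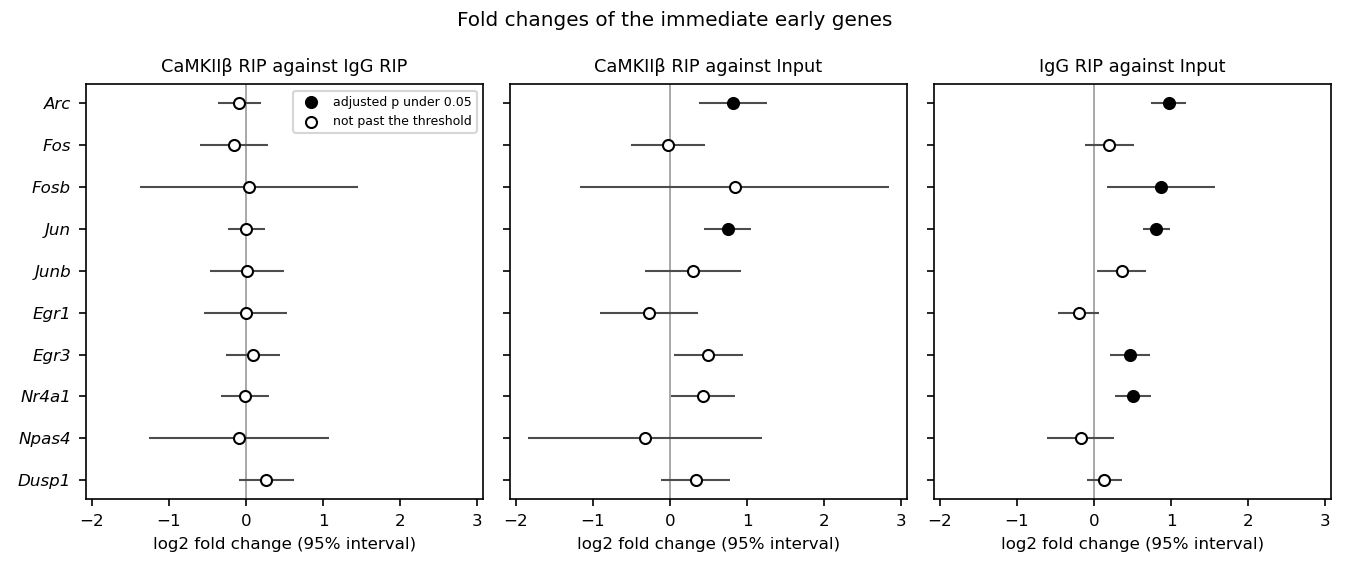
log2 fold change of each of the 10 members with its 95% interval in the 3 comparisons, on the x axis, with filled points for adjusted p under 0.05 in edgeR and a grey line at 0. All intervals include 0 in CaMKIIβ RIP against IgG RIP, and Arc and Jun are called in both comparisons with Input.

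The comparison of IgG RIP with Input shows what the unspecific precipitate held, and it shares its Input libraries with the comparison above. Here 5 of 10 members rose and 0 fell, where 20.1% of 22342 genes tested were higher, 18.7% lower and 38.7% called in either direction (4483 and 4170 genes, or 2714 higher and 6345 lower with plain library size scaling). Arc was 1.96-fold higher in IgG RIP (log2 fold change 0.97 ± 0.11, edgeR adjusted p = 1.6e-06), Jun 1.75-fold (0.81 ± 0.08, adjusted p = 5.91e-07), Nr4a1 1.42-fold (0.51 ± 0.11, adjusted p = 0.0015), Egr3 1.38-fold (0.47 ± 0.12, adjusted p = 0.00583) and Fosb 1.82-fold (0.87 ± 0.33, adjusted p = 0.0482). These are the synaptic effector, 2 AP-1 genes, 1 EGR gene and the nuclear receptor.

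The 5 members that did not pass were Junb (0.36 ± 0.15, adjusted p = 0.0762), Fos (0.20 ± 0.15, adjusted p = 0.337), Dusp1 (0.13 ± 0.11, adjusted p = 0.364), Npas4 (-0.17 ± 0.21, adjusted p = 0.562) and Egr1 (-0.20 ± 0.13, adjusted p = 0.243). Groups did not overlap for 6 of 10 members, the 5 called and Junb, near the 60.3% of genes tested. The members' median was 0.41, against -0.02 over all genes tested. Arc and Jun passed under every alternative test tried here. With plain library size scaling Fosb, Egr3 and Nr4a1 no longer passed (adjusted p = 0.14, 0.136 and 0.0551) and Egr1 passed as lower (-0.43, adjusted p = 0.011). Fosb was lost without IgG RIP replicate 3 (adjusted p = 0.143), Input replicate 1 (0.289) or Input replicate 2 (0.173), Egr3 without Input replicate 1 (0.0631) or Input replicate 2 (0.0595), and Egr1 passed as lower without IgG RIP replicate 3 (-0.36, adjusted p = 0.0147).

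Values of glial and vascular markers moved with both comparisons against Input. Of the 7 listed astrocyte markers 6 could be matched, none was at 0 in any group, and their summed level was 1093 to 1218 CPM per kilobase in CaMKIIβ RIP and 1137 to 1221 in IgG RIP, against 601 to 623 in Input. The astrocyte markers that rose were 5 of 6 in CaMKIIβ RIP and 6 of 6 in IgG RIP. Of all genes tested, 5.06% were higher in CaMKIIβ RIP and 20.1% in IgG RIP. The 8 endothelial and mural cell markers, none at 0, summed to 59.5 to 65.3 CPM per kilobase in CaMKIIβ RIP and 60.7 to 66.8 in IgG RIP, against 33.7 to 34.5 in Input, with 4 and 7 of 8 risen. The 6 oligodendrocyte markers, none at 0, summed to 1469 to 1516 and 1382 to 1464, against 945 to 962 CPM per kilobase in Input. Their part in the values of the immediate early genes was not tested.

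Exon length moved with these comparisons too. A smooth curve of log2 fold change on exon length, fitted over all genes tested, was below 0 at the members' lengths. These ran from 1809 bases (Junb) to 6243 bases (Fosb), and the exception was Fosb in IgG RIP at 0.03. Measured from that curve, Arc stood at 1.05 for CaMKIIβ RIP and 1.07 for IgG RIP, and Jun at 0.96 and 0.90. The members' median was then 0.61 in CaMKIIβ RIP, against 0.09 over all genes tested, and 0.51 in IgG RIP, against 0.05.

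**Figure D3:**
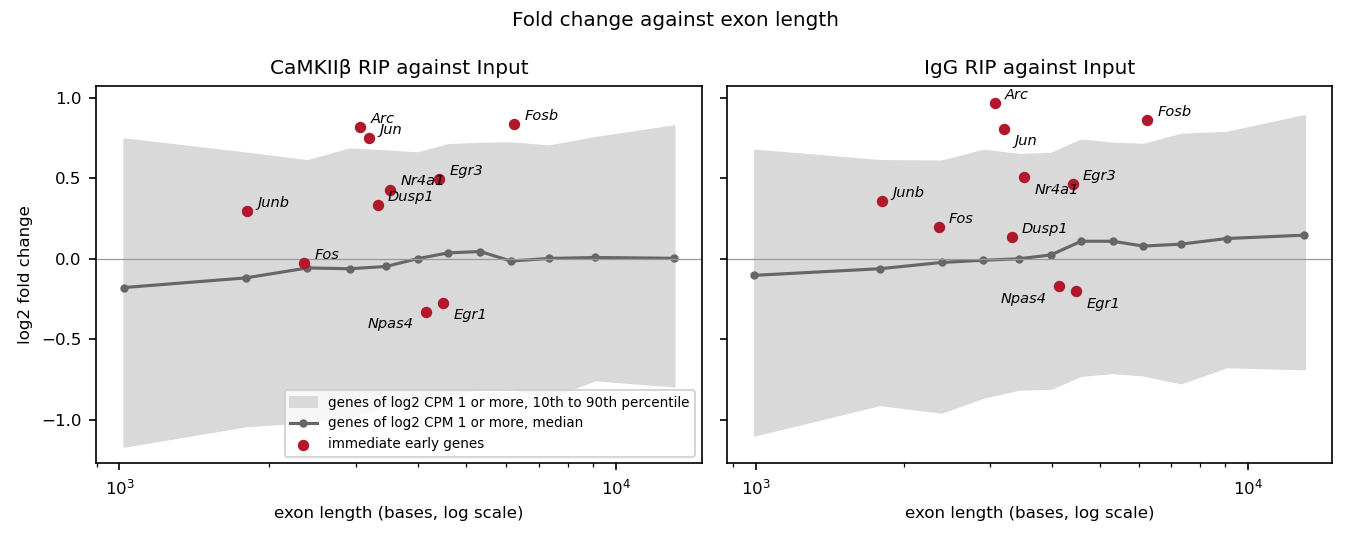
log2 fold change against exon length in bases (log axis) for the 10 members (red points) in either precipitate against Input, with the median (line) and the 10th to 90th percentile (band) of the genes tested whose mean log2 CPM was 1 or more, in bins of length. Arc, Jun and Fosb lie above the band in both panels, and Egr1 and Npas4 lie below the median line.

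Within gene families, the shares per kilobase show which members made up the signal. AP-1 is built from Jun and Fos proteins, and Jun made up 58.3 ± 1.59% of the summed level of the 6 AP-1 genes counted in CaMKIIβ RIP and 58.3 ± 1.92% in IgG RIP (SD, n = 3 each), against 50.01 ± 0.853% in Input (SD, n = 2). The 6 precipitated libraries gave Jun shares of 56.8% to 60.5%, above the Input libraries at 49.4% and 50.6%. Fos made up 14.0% and 15.5% on average, against 20.4% in Input, and all 6 precipitated libraries were below both Input libraries. The two-sided exact permutation p was 0.2 for either gene in either comparison with Input, which is the smallest that 3 against 2 libraries allow.

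Junb held 14.2% of the sum in both precipitates, against 16.7% in Input. Fosl2, a Fos-related gene outside the 10, held 11.9% and 10.8%, against 11.6%. Fosb stayed between 0.244% and 1.52% in all 8 libraries. The AP-1 genes summed were Jun, Junb, Fos, Fosb, Fosl1 and Fosl2. Jund is listed at 0 in all 6 precipitated libraries and at 1 and 0 counts in Input, and was left out. Jund is a widely expressed Jun gene, and whether its 0 reflects the RNA or the counting was not tested, so the shares hold for the 6 genes summed and not for all AP-1 RNA.

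**Figure D4:**
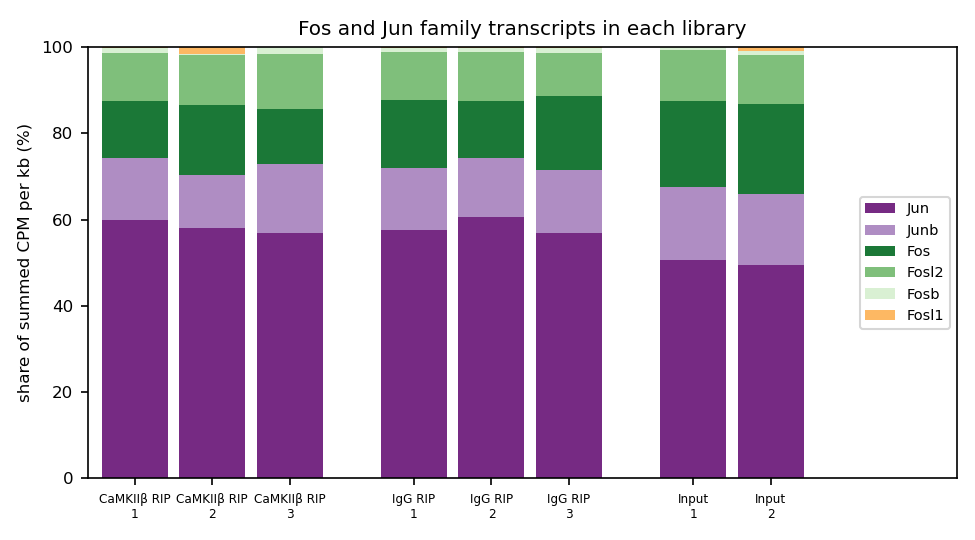
Share of each AP-1 gene in the summed CPM per kilobase of exon of Jun, Junb, Fos, Fosb, Fosl1 and Fosl2, in percent, as 1 stacked bar for each of the 8 libraries. Jun takes 56.8% to 60.5% in the 6 precipitated libraries, against 49.4% and 50.6% in Input.

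In the EGR family the shares of Egr1, Egr3 and Egr4 varied more among libraries. Egr1 took 33.5%, 23.3% and 47.0% of the sum in CaMKIIβ RIP and 42.5%, 35.0% and 45.9% of it in IgG RIP, against 51.0% and 55.2% in Input. Every precipitated library was below Input, and the CaMKIIβ RIP libraries differed most among themselves. In replicate 3 of each precipitate, Egr1 itself was above Input (44.3 and 38.3 CPM, against 36.0 and 37.8), so its lower share there was not a lower level. Egr3 took 24.5% to 30.1% and 27.6% to 31.7%, against 23.4% and 24.5% in Input. Egr4 took 27.8% to 52.2% in CaMKIIβ RIP and 26.5% to 33.3% in IgG RIP, against 20.3% and 25.6% in Input. Egr2, a gene of the same family active in myelination, is listed at 0 in all 6 precipitated libraries and at 2 and 0 counts in Input, and was likewise left out of the sum. In the NR4A family, Nr4a1 took 31.5% to 36.9% in CaMKIIβ RIP and 31.0% to 34.1% in IgG RIP, against 24.9% and 28.4% in Input, and the relatives Nr4a2 and Nr4a3 took the rest.

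The other genes of the activity response were taken from lists of relatives and neighbours of the 10 in the pathway. In CaMKIIβ RIP against IgG RIP, edgeR called 0 genes in all 7 lists. Among the upstream regulators, which carry the calcium and MAP kinase signals to the promoters, 6 of 19 rose and 0 fell in CaMKIIβ RIP against Input, and 12 rose and 4 fell in IgG RIP against Input. Srf, the serum response factor, rose in both (0.90 ± 0.22, edgeR adjusted p = 0.0479, and 0.89 ± 0.11, adjusted p = 3.45e-06). Crtc1, a CREB coactivator, also rose in both (0.80 ± 0.11, adjusted p = 0.00944, and 0.71 ± 0.07, adjusted p = 6.3e-07), as did Mapk3, the kinase ERK1 (0.67 ± 0.16, adjusted p = 0.046, and 0.90 ± 0.09, adjusted p = 5.38e-07). Creb1 had -0.41 ± 0.19 in CaMKIIβ RIP (adjusted p = 0.257) and fell in IgG RIP (-0.45 ± 0.08, adjusted p = 0.000158). Camk4, a nuclear calcium/calmodulin kinase, had -0.35 ± 0.16 (adjusted p = 0.244) and fell in IgG RIP (-0.31 ± 0.06, adjusted p = 0.000371). The list's medians were 0.20 and 0.38, against -0.12 and -0.02 over all genes tested. The background shares were 5.06% higher with 3.40% lower for CaMKIIβ RIP, and 20.1% higher with 18.7% lower for IgG RIP, so the 4 of 19 that fell in IgG RIP are near the background.

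Of 27 other rapid primary response genes, 2 rose and 1 fell in CaMKIIβ RIP against Input, and 9 rose and 3 fell in IgG RIP against Input. Against the shares of all genes (5.06% higher with 3.40% lower for CaMKIIβ RIP, 20.1% with 18.7% for IgG RIP), the CaMKIIβ RIP counts are near the background. The medians were 0.01 and 0.11, against -0.12 and -0.02 over all genes tested. Ccn1, a secreted matrix protein gene, had 1.33 ± 1.24 in CaMKIIβ RIP (edgeR adjusted p = 0.643) and rose in IgG RIP (1.35 ± 0.39, adjusted p = 0.00987). Ier2 had 0.996 ± 0.26 in CaMKIIβ RIP (adjusted p = 0.0614) and rose in IgG RIP (0.56 ± 0.19, adjusted p = 0.0257). Sik1, a salt-inducible kinase gene, had 0.59 ± 0.22 in CaMKIIβ RIP (adjusted p = 0.156) and rose in IgG RIP (0.79 ± 0.13, adjusted p = 9.86e-05). Tiparp, a mono-ADP-ribosyltransferase gene, fell in both (-1.03 ± 0.23, adjusted p = 0.0375, and -0.96 ± 0.15, adjusted p = 8.25e-05). Ier3 had -0.999 ± 0.78 for CaMKIIβ RIP and 0.05 ± 0.23 for IgG RIP, passing in neither. Coq10b had -0.80 ± 0.27 in CaMKIIβ RIP (adjusted p = 0.129) and fell in IgG RIP (-0.75 ± 0.20, adjusted p = 0.00588).

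Of 16 late or effector genes, which follow the transcription factors in time, 1 rose and 2 fell in CaMKIIβ RIP against Input, and 3 rose and 7 fell in IgG RIP against Input. The shares of all genes were 5.06% higher with 3.40% lower for CaMKIIβ RIP and 20.1% with 18.7% for IgG RIP, so the 3 of 16 that rose in IgG RIP are near the background. The medians were -0.21 and -0.13, against -0.12 and -0.02 over all genes tested. Vgf, a neuropeptide precursor gene, rose in both (0.995 ± 0.16, edgeR adjusted p = 0.0147, and 0.72 ± 0.09, adjusted p = 4.25e-06). Syt4, a synaptotagmin gene, fell in both (-0.74 ± 0.15, adjusted p = 0.0308, and -0.64 ± 0.07, adjusted p = 1.37e-06). Bdnf, a neurotrophin gene, had -0.61 ± 0.24 in CaMKIIβ RIP (adjusted p = 0.178) and fell in IgG RIP (-0.73 ± 0.15, adjusted p = 0.000889). Nptx2, a neuronal pentraxin gene, had 0.58 ± 0.40 and 0.19 ± 0.18, and the kinase gene Pim1 0.12 ± 0.35 and 0.38 ± 0.16, without passing in either. Pcsk1, a prohormone convertase gene, had -0.62 ± 0.29 in CaMKIIβ RIP (adjusted p = 0.278) and fell in IgG RIP (-0.67 ± 0.12, adjusted p = 0.000241).

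Of the relatives of the 10, 0 of 5 AP-1 and related genes, 0 of 3 EGR and NAB genes, 0 of 2 NR4A genes and 0 of 6 dual specificity phosphatases tested passed in CaMKIIβ RIP against Input. Of all genes tested 8.45% were called there, so lists this short are near the background at 0. The values nearest the ends were 1.14 ± 0.39 for Egr4 (edgeR adjusted p = 0.132), 1.02 ± 1.32 for Atf3, 0.82 ± 2.08 for Fosl1, 0.59 ± 0.36 for Dusp14, 0.57 ± 0.15 for Fosl2 (adjusted p = 0.0655), 0.52 ± 0.15 for Dusp8 (adjusted p = 0.0803) and 0.20 ± 0.18 for Dusp6. Below 0 were Dusp2 (-0.85 ± 1.79), Crem (-0.31 ± 0.27), Nab1 (-0.26 ± 0.18), Nr4a3 (-0.13 ± 0.24) and Nr4a2 (-0.01 ± 0.17), and Nab2 had 0.30 ± 0.25.

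In IgG RIP against Input, Fosl2 rose (0.48 ± 0.09, edgeR adjusted p = 0.000333) and Crem, a CREB-related gene, fell (-0.61 ± 0.18, adjusted p = 0.0137) among 4 AP-1 and related genes tested. Egr4 (0.50 ± 0.18, adjusted p = 0.0379) and Nab2, a corepressor of EGR proteins (0.58 ± 0.12, adjusted p = 0.000613), rose among 3. Of the phosphatases 3 of 6 rose and 0 fell, among them Dusp4 (0.90 ± 0.14, adjusted p = 5e-05) and Dusp5 (0.50 ± 0.08, adjusted p = 0.000125), relatives of Dusp1. Of all genes tested 20.1% rose and 18.7% fell in IgG RIP against Input, and each of these lists is short. Maff had 0.93 ± 0.39 (adjusted p = 0.0708), Nr4a2 0.24 ± 0.09 (adjusted p = 0.0525), Dusp14 0.16 ± 0.19, Atf3 0.13 ± 0.75, Nr4a3 -0.12 ± 0.10, Dusp2 -0.15 ± 0.75 and Nab1 -0.18 ± 0.09.

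**Figure D5:**
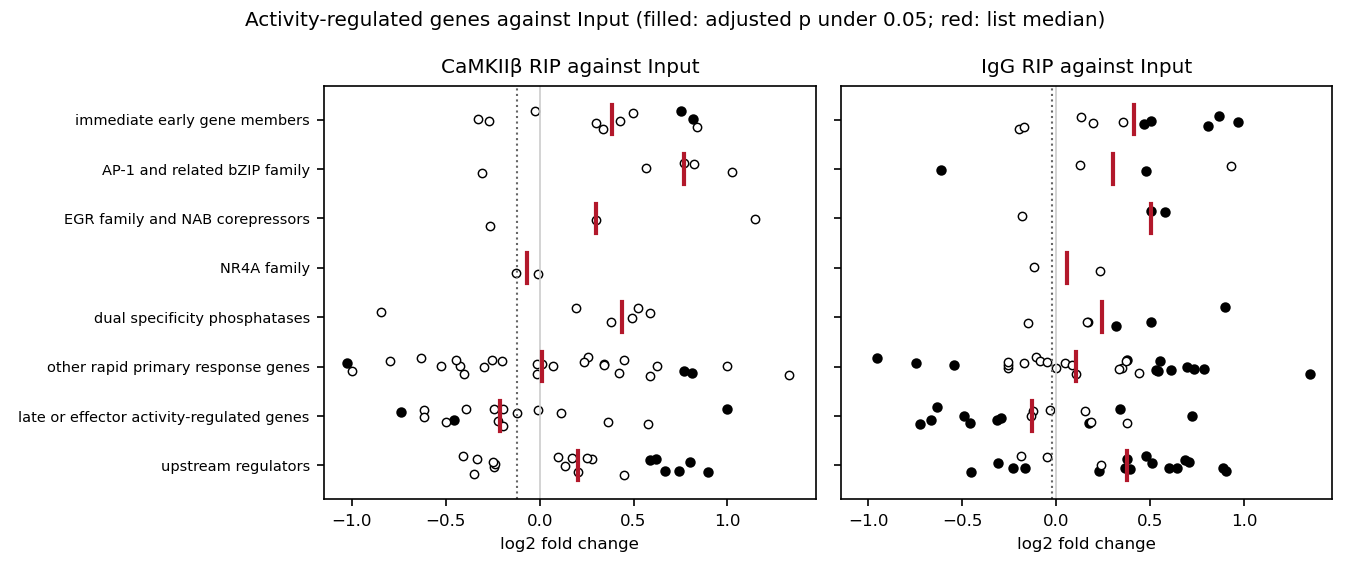
log2 fold change of each tested gene (points) in the 10 members and 7 lists of activity-related genes, in either precipitate against Input, with the list median in red and the median of all genes tested as a dotted line. Filled points have adjusted p under 0.05, and the upstream regulators hold the most of them in CaMKIIβ RIP, 6 of 19.

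The members did not vary alike among replicates. Npas4 in CaMKIIβ RIP replicate 3 had a log2 ratio of -2.22 to the other 2 libraries of its group, and 0.988% of 4250 genes of like level were as far below. Egr1 in the same library was 0.82 above its group's other 2, as were 2.59% of 4745 genes of like level, and in IgG RIP replicate 3 it was 0.42 above, as were 0.806% of 4840. The coefficient of variation of Egr1 was 35.2% in CaMKIIβ RIP, 18.5% in IgG RIP and 3.42% in Input. Fos was 18.0% in IgG RIP and 7.10% in CaMKIIβ RIP, while Arc was 2.32% in IgG RIP and 13.1% in CaMKIIβ RIP. Genes of like level had medians of 18.0% in CaMKIIβ RIP and 7.77% in IgG RIP for Egr1. Those medians were 22.7% and 9.62% for Fos, and 14.7% and 6.13% for Arc. These spreads are descriptions of 3 libraries or fewer. The library ratios named are among the most extreme over all members and precipitated libraries.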

How the data were processed

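Total RNA from input and RIP samples was sequenced, and the authors deposited 1 table of raw counts per gene for 8 libraries. Per the submitters' processing notes, the tools were STAR 2.7.3a, featureCounts 2.0.1, cutadapt 2.10 and Trim Galore 0.6.4, on GRCm38.p6. Whether counting used strand, and how reads with several positions and duplicates were handled, is not given in the sources used here. No molecular identifiers are mentioned.

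Columns were matched to samples by name. Ensembl genes were named from RefSeq genes on GRCm38.p6 whose span overlapped theirs by 0.5 or more of the joint length, or else shared a gene end within 10 bases (Npas4 and Dusp1, whose spans shared 0.312 and 0.051). The rule was set with the table in view. In all 35400 of 55401 genes got a symbol, covering 97.2% of counts and 146 of 148 list genes.

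All genes passing filterByExpr (count at least 10, total at least 15) were fitted with TMM scaling by edgeR 4.0.16 (R 4.3.3), using only the 2 groups compared and the robust quasi-likelihood test. P-values were adjusted by Benjamini-Hochberg, with a threshold of 0.05. Printed CPM use TMM factors over all 8 libraries. DESeq2 1.42.0, other scalings, no filter, a joint fit and left-out libraries were alternatives. The labels do not say that replicate numbers pair libraries, so the main fits did not use the numbers as a block. Deviations from group means correlated at -0.098 to 0.124 between same-numbered libraries of different groups. Between differently numbered ones it was -0.124 to 0.066. From each list, the 2 highest and 2 lowest genes in each comparison with Input were named. Members and lists were chosen with earlier results of these data known, and the fitting script was tested on simulated data. There, 49% of 2-fold changes were called in the right direction for CaMKIIβ RIP against IgG RIP. For CaMKIIβ RIP against Input it was 31%, and for IgG RIP against Input 84%. A lack of calls in the first 2 comparisons therefore does not show a lack of change.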

Additional observations from a re-analysis of the deposited data

How the results depend on the processing

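Across the alternatives, no member changed sign with a call, and in CaMKIIβ RIP against IgG RIP 0 members and 0 genes passed under any of them. Members higher in CaMKIIβ RIP than in Input numbered 2, and 1 with library size scaling, and 0 to 4 with 1 library left out (0 without CaMKIIβ RIP replicate 1 or Input replicate 2, 4 without CaMKIIβ RIP replicate 2). Genes called in that comparison numbered 1868, and 2866 with no count filter, 3540 with DESeq2, 4205 with the replicate block, 3833 with all 8 libraries in 1 fit, and 0 (without CaMKIIβ RIP replicate 1) to 4089 (without CaMKIIβ RIP replicate 2) with 1 left out, with 845 without Input replicate 1 and 400 without Input replicate 2. Members higher in IgG RIP than in Input numbered 5, and 2 with library size scaling or with all 8 libraries in 1 fit, and 3 to 5 with 1 left out. Members lower there numbered 0, and 1, Egr1, with library size scaling (-0.43, edgeR adjusted p = 0.011) and the replicate block (-0.36, adjusted p = 0.00633), and 0 to 1 with 1 left out. Genes called there numbered 8653, and 3676 with all 8 libraries in 1 fit and 5659 to 9017 with 1 left out. Fosb was also lost there with DESeq2 (adjusted p = 0.0979), no count filter (0.0624), the block (0.141), the joint fit (0.598) and library size scaling (0.14), while Egr3 (0.123 and 0.136) and Nr4a1 (0.0646 and 0.0551) were lost in the joint fit and with library size scaling. The cause was not tested.

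Plain library size scaling moved the median of all genes by -0.17 in CaMKIIβ RIP against Input and -0.23 in IgG RIP against Input. Calls then split into 683 higher and 1361 lower, and 2714 higher and 6345 lower, against 1117 and 751, and 4483 and 4170, with TMM. In both comparisons with Input 8 of 10 members lay above the all-gene median under each of the 3 scalings. The replicate block changed no other member's call than those named. Input has no replicate 3, so the block left replicate 3 of each precipitate out of these differences. Where 1 Input library was left, it was assumed to vary like the precipitates. Fosb, with 12 to 105 counts, and Npas4, with 30 to 171, had the fewest reads of the 10.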

Other observations

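Over the 8 libraries, the mean centred log2 CPM of the 10 members was 0.18, -0.08 and 0.05 in the CaMKIIβ RIP libraries and 0.04, 0.06 and 0.26 in those of IgG RIP, against -0.25 and -0.25 in Input. The genes nearest to that profile, by root mean square distance over the 8 libraries among 14817 other genes, were Higd2a, a gene of a mitochondrial respiratory chain assembly factor (0.0386), Apbb2, of a protein that binds the amyloid precursor protein (0.0418), U2af2, of a splicing factor (0.0479), Cadm3, of a cell adhesion molecule (0.0486), and Abcf3, of an ABC family protein (0.0499). The median gene stood at 0.337. Among the members themselves, Nr4a1 (0.0999) and Junb (0.102) were nearest to their shared mean, and Egr1 (0.359), Fosb (0.702) and Npas4 (0.749) were farther from it than the median gene. The libraries share their source tissue, and the distance is a description with no test.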
